A study of Mus musculus with 6 samples.

Results

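Diap1, the gene for the formin mDia1, lies on mouse chromosome 18, and the genes described here are its neighbours. They are the 154 gene loci of the deposited tables whose position overlaps 32844825 to 42935411 of chromosome 18 (mm10), which is 5 Mb on either side of Diap1 (37844825 to 37935411), out of 23746 loci in all. Diap1 itself and 6 other loci of that window, named by the rule of selection, are left out. Expression was measured by RNA sequencing in bone marrow of C57BL/6 mice aged 12 weeks. The groups are wild type (WT), Diap1 +/- (Het) and Diap1 -/- (KO), and for each genotype the marrow of 4 mice was pooled. Each pool gave a fraction of Gr1 and Mac1 double positive myeloid cells, taken with magnetic beads, and a fraction of lineage-negative progenitors (Lin-) selected from the cells that remained. There is 1 library for each of the 6 combinations of genotype and fraction, so a difference between genotypes has no replicate check and no test between genotypes was possible. The labels do not say how the allele was made or how many backcrosses the line had.

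Genes on the same chromosome as a targeted gene are inherited with it more often the nearer they lie. The mouse segment around Diap1 corresponds to a part of the long arm of human chromosome 5 that is often lost in myelodysplastic syndromes, and it holds genes of protein folding, RNA handling, cell division and transcription that most cells use, beside the clustered protocadherins, which are cell adhesion molecules chiefly of neurons.

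Values are FPKM (fragments scaled to transcript length and library size), each deposited with a lower and an upper bound of a 95% interval that covers counting error. Where 3 values stand in a row, they belong to WT, Het and KO in that order, and the fractions are called progenitors (Lin-) and myeloid cells (Gr1+Mac1+). A locus counts as measured in a fraction where the mean FPKM of its 3 libraries is at least 1. Ratios between genotypes are log2 ratios of FPKM + 1, which understate the change of low genes, and their standard errors (counting SE) come from the deposited intervals. The size rule asks for a change of at least 2-fold on that scale, intervals that do not overlap and, in whichever library is higher, 5 FPKM or more. The interval rule asks only for intervals that do not overlap. As the intervals hold no spread between mice, both rules describe these libraries.

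The libraries held an implied 8630000 to 11600000 fragments each, rounded to 10000. Diap1 followed the labels, at 36.0, 24.2 and 6.07 in progenitors and 57.1, 34.1 and 4.07 in myeloid cells. The fractions differed in the summed markers of their cell types. The 8 listed progenitor genes summed to 256, 250 and 298 in Lin- and to 101, 111 and 111 in Gr1+Mac1+ libraries. Kit, the stem cell factor receptor of progenitors, was at 72.6, 66.4 and 84.7 in Lin- and at 15.0, 15.7 and 14.9 in Gr1+Mac1+ libraries. The summed FPKM of 9 of the 10 listed granulocyte and monocyte genes, without Ly6g, was 113788 to 138483 in Gr1+Mac1+ libraries. Most of it was S100a8 (46030 to 61412) and S100a9 (53959 to 61825). In the Lin- fraction those 9 genes summed to 77.8, 6652 and 107, so the library labelled Het Lin- had a higher level of these markers than the others of its fraction. The sum of 6 erythroid genes was 1182, 1198 and 1933 in progenitors and 4464, 4109 and 2621 in myeloid cells, and that of 6 stromal and endothelial genes 344, 657 and 417 in progenitors. The part of these sums in the neighbours' values was not tested. In such bulk libraries, fewer cells of a type and less RNA per cell cannot be told apart.

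Of the 154 neighbours, 63 were measured in progenitors and 59 in myeloid cells, 57 of them in both and 65 in at least 1 fraction. The other 89 stayed under the limit, and 17 of these were listed at 0 in all 6 libraries. The measured loci are unevenly spread, with 49 at lower coordinates than Diap1 and 16 at higher ones. By the GENCODE annotation, to which 63 of the 65 were matched, 57 are protein coding. A further 3 are a microRNA, a small nucleolar RNA and a vault RNA locus with values that rest on few fragments. Mir1949, for example, was listed at 529, 275 and 0 in progenitors from an implied 2 fragments in WT and 1 in Het. These 3 loci count among the measured ones but are not drawn in the plots of ratios.

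**Figure D1:**
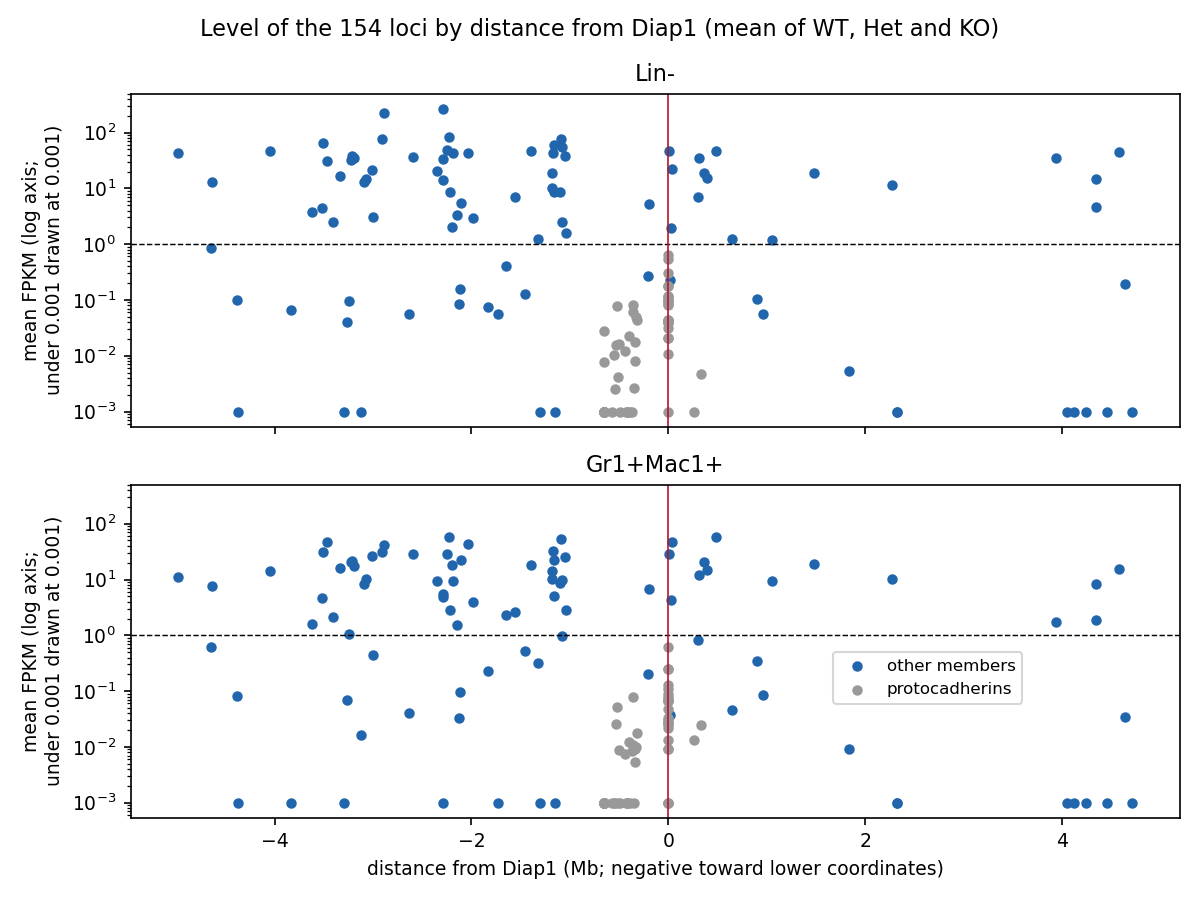
Mean FPKM over WT, Het and KO (log axis, values under 0.001 drawn at 0.001) of the 154 loci against their distance from Diap1 in Mb, in Lin- cells (top) and Gr1+Mac1+ cells (bottom). The dashed line is the limit of 1, and all 61 protocadherins (grey) lie under it in both fractions, right beside Diap1 (red line).

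The clustered protocadherins, cell adhesion genes that lie directly before Diap1, were near silent in every library. The 61 protocadherin loci counted here are 15 of the alpha, 22 of the beta and 22 of the gamma cluster and, outside these clusters, Pcdh1 and Pcdh12. None reached a mean FPKM of 1, and 6 were listed at 0 in all 6 libraries. The highest value of any of them in any library was 0.858. Their summed FPKM was 2.83, 3.21 and 3.96 in progenitors and 1.83, 2.10 and 2.81 in myeloid cells, lowest in WT and highest in KO in both fractions. The gamma loci share their last exons, so fragments can be split between them, and sums this low carry no usable comparison of single genes. Taf7, a subunit of the general transcription factor TFIID that sits amid these clusters (37640491 to 37644204, 0.201 Mb from Diap1), was measured, at 5.74, 4.84 and 4.997 in progenitors and 6.72, 6.398 and 6.93 in myeloid cells. Its intervals overlapped between all genotypes of a fraction.

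For Hdac3 and Fchsd1, the measured genes nearest Diap1, the KO intervals overlapped those of WT in both fractions. Hdac3, the histone deacetylase of nuclear receptor corepressor complexes, starts 0.00156 Mb past Diap1 (37936971 to 37954988). It read 49.2, 45.7 and 44.5 in progenitors and 29.2, 25.8 and 30.1 in myeloid cells. The KO to WT log2 ratios were -0.14 (counting SE 0.06) and 0.04 (0.07), so the sign differed between fractions. Fchsd1, an adaptor with a membrane-binding F-BAR domain, stood at 1.79, 1.86 and 2.29 in progenitors and at 3.71, 4.42 and 4.68 in myeloid cells, with overlapping intervals throughout.

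Arap3, the GTPase-activating protein for small GTPases that acts downstream of PI3-kinase, lies 0.0372 Mb past Diap1 (37972623 to 37998969) and differed between genotypes in myeloid cells. Myeloid cells gave 41.9 (interval 40.4 to 43.5), 47.4 (45.1 to 49.7) and 51.1 (49.1 to 53.1). The KO and Het intervals both lay above that of WT, and the log2 ratio of KO to WT was 0.28 (counting SE 0.04). In progenitors it stood at 21.9, 21.5 and 23.0, with overlapping intervals. Rnf14, a ubiquitin ligase 0.361 Mb away, had values of 18.9, 19.6 and 18.6 in progenitors and 20.05, 18.6 and 22.0 in myeloid cells, again with overlapping intervals.

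Between Arap3 and Rnf14 lie 0610009O20Rik and 1700086O06Rik, which overlap on opposite strands. 0610009O20Rik, named Dele1 in GENCODE, a mitochondrial protein of the stress response, was at 14.2, 12.0 and 10.4 in myeloid cells, a log2 ratio of -0.41 (counting SE 0.10) in KO, and was at 36.1, 34.9 and 34.9 in progenitors. The noncoding 1700086O06Rik was at 5.14, 6.94 and 9.14 in progenitors, 0.72 (0.17) in KO, and at 1.49, 0.447 and 0.578 in myeloid cells. The intervals imply 67 fragments in WT and 246 in KO progenitors, a log2 ratio of 2.02 for the library share, so its size differs between FPKM and fragments. No source used here says that strand was recorded, so fragments of this pair cannot be told apart where the loci overlap.

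Among the nearest measured loci before the protocadherins, Zmat2, a zinc finger protein of the spliceosome 1.05 Mb from Diap1, was lower in KO progenitors by the interval rule, at 40.4, 39.6 and 34.8 (log2 ratio -0.21, counting SE 0.06). Wdr55, a nucleolar WD-repeat protein 1.08 Mb away, stood at 61.4, 50.03 and 51.7, with the Het and KO intervals both below that of WT. In myeloid cells Zmat2 was at 27.7, 23.1 and 25.8 and Wdr55 at 9.98, 10.04 and 9.46, and the KO intervals overlapped those of WT. Ik, a splicing factor, was at 80.7, 75.96 and 73.6 and at 55.6, 51.1 and 56.1, with overlapping intervals of KO and WT. Dnd1, an RNA-binding protein of germ cells that overlaps Wdr55 on the other strand, lay between 2.27 and 2.78 in progenitors. Vaultrc5, the vault RNA locus, had at most 9 implied fragments in a library.

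No neighbour passed the size rule in KO against WT cells. In progenitors this was 0 of 63, beside 0.173% of all 10952 measured loci (0.137% higher and 0.0365% lower), and in myeloid cells 0 of 59, beside 0.142% of 11270 (0.0444% and 0.0976%). The members as a whole were centred on no change. Their median log2 ratio was 0.01 in both fractions (34 positive and 29 negative in Lin-, 30 and 29 in Gr1+Mac1+), and over all loci it was 0.0033 and 0.0061. Among neighbours with a mean FPKM of at least 5, 40 of 49 in progenitors and 35 of 44 in myeloid cells differed by less than 1.2-fold on the log2(FPKM + 1) scale.

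**Figure D2:**
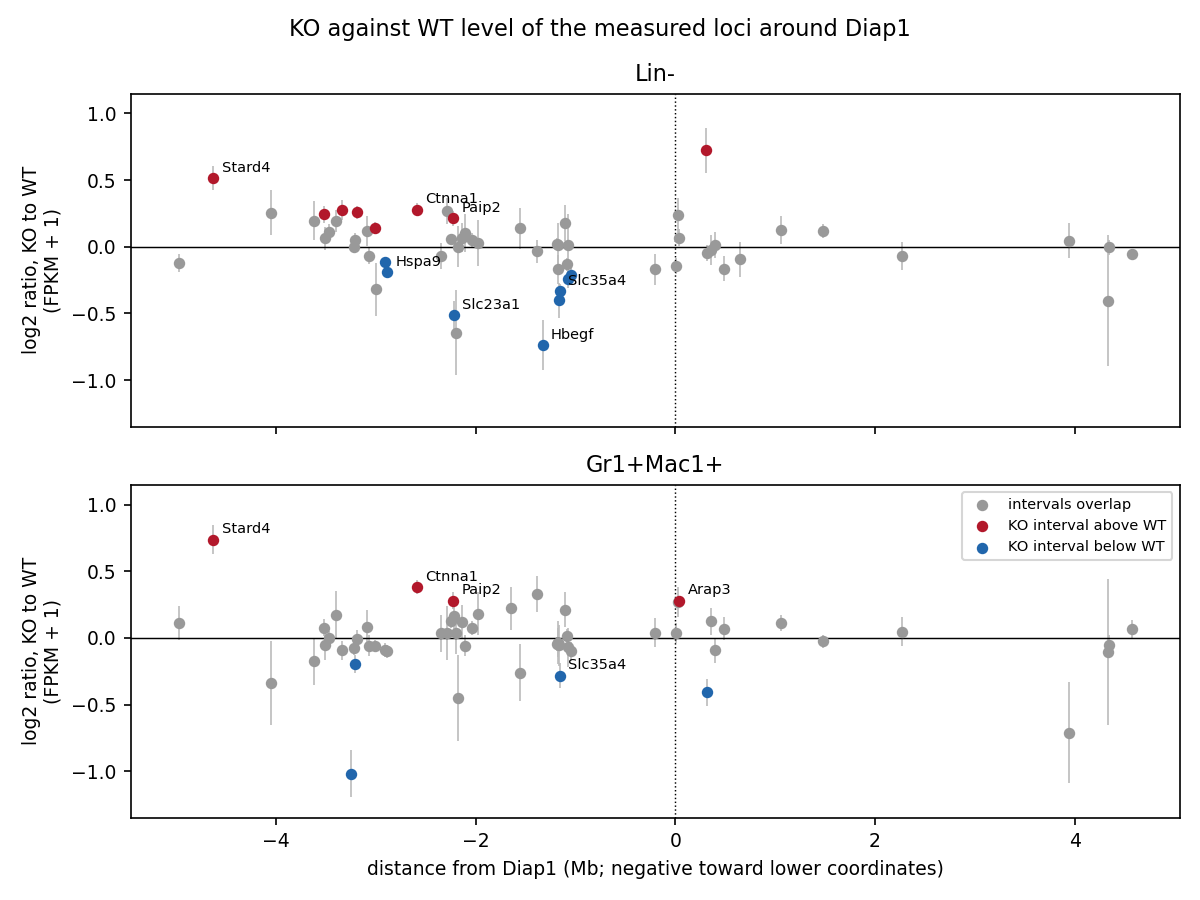
Log2 ratio of KO to WT (FPKM + 1) of the measured loci against distance from Diap1 in Mb, in Lin- cells (top) and Gr1+Mac1+ cells (bottom). Bars are counting SE, red and blue points have a KO interval above or below that of WT, and the 3 small RNA loci are not drawn. Stard4 and Ctnna1 stand above 0.25 in both fractions.

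Small differences that exceeded counting error were more frequent than over all loci in KO progenitors. There, 8 neighbours were higher and 8 lower by the interval rule, 25.4% of 63, beside 13.5% of all loci (6.16% higher and 7.38% lower). With a mean FPKM of at least 5, where the intervals are narrower, it was 14 of 49 (28.6%) beside 16.2% of 8156 loci. Of the 16, 15 lay at lower coordinates than Diap1, where 47 of the 63 lie. By distance, 1 of 10 measured loci within 1 Mb passed. At 1 to 2.5 Mb it was 7 of 30 and at 2.5 to 5 Mb 8 of 23. In progenitors, the share was thus not highest next to Diap1. On the rest of chromosome 18 it was 10.9% of 193. In KO myeloid cells 4 neighbours were higher and 4 lower, 13.6% of 59, beside 10.8% of all loci (5.25% higher and 5.57% lower) and 8.33% of the rest of chromosome 18. With a mean FPKM of at least 5, the shares in this fraction were 15.9% of 44 and 12.7% of 8153. Within 1 Mb of Diap1, 1 was higher and 1 lower of 8 loci measured in myeloid cells. At 1 to 2.5 Mb it was 1 and 1 of 28, and at 2.5 to 5 Mb 2 and 2 of 23. In myeloid cells, unlike progenitors, the share was thus highest next to Diap1, though it rests on 8 loci there. None of these shares was tested, since each group is 1 library.

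In both fractions and in 1 direction, 4 of the 57 neighbours measured in both passed the interval rule, 3 higher and 1 lower in KO. The lower one, Slc35a4, has the opposite sign in progenitors by implied fragments, as given below, and without it 3 of 57 are left. The shares of all loci were not screened by implied fragments. All 4 together are 7.02%, beside 0.722% of all 10254 loci higher in both and 0.858% lower in both, 1.58% together. The fractions share no library, but each pair was drawn from 1 pool of mice and cannot stand in for replicates. Above a mean FPKM of 5 in both fractions the same 4 were found among 42, and 2.10% of all loci passed. Asking for 1.2-fold as well ended the call of Paip2 and left 3, beside 0.449% of all loci. The 4 are Stard4, Ctnna1, Paip2 and Slc35a4, all between 1.16 and 4.63 Mb from Diap1 at lower coordinates.

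Stard4, a carrier of cholesterol between membranes (33201421 to 33213816), had the highest KO to WT ratio of the neighbours with a mean FPKM of at least 5 in myeloid cells, and in progenitors the highest after 1700086O06Rik. Progenitors gave 10.6 (interval 9.54 to 11.7), 12.8 (11.6 to 14.0) and 15.6 (14.2 to 16.9). Myeloid cells gave 5.41 (4.70 to 6.12), 7.63 (6.73 to 8.53) and 9.69 (8.58 to 10.8). WT was lowest, Het between and KO highest in both fractions, and all intervals of a fraction lay apart except those of WT and Het in progenitors. The log2 ratio of KO to WT was 0.52 (counting SE 0.09) in progenitors and 0.74 (0.11) in myeloid cells.

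Ctnna1 (35118912 to 35254775), alpha-catenin, which links cadherins to actin filaments, showed the same order. Progenitors gave 33.4 (31.8 to 35.1), 35.6 (33.8 to 37.3) and 40.8 (38.8 to 42.7). Myeloid cells gave 24.6 (23.2 to 25.9), 28.3 (26.7 to 29.8) and 32.3 (30.5 to 34.1), with 3 intervals that did not overlap. The log2 ratios of KO to WT were 0.28 (counting SE 0.05) and 0.38 (0.05). Lrrtm2, which lies within the Ctnna1 locus, was not measured in either fraction.

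Paip2, which binds the poly(A)-binding protein and represses translation (35598667 to 35617185), was highest in KO in both fractions, while Het lay between WT and KO in progenitors and was lowest in myeloid cells. It read 78.5, 81.1 and 91.1 in progenitors and 54.8, 49.2 and 66.7 in myeloid cells. The KO to WT log2 ratios were 0.21 (counting SE 0.06) and 0.28 (0.06). Its end overlaps Slc23a1, a vitamin C transporter on the other strand, which went the other way in progenitors (10.4, 8.51 and 6.99, a log2 ratio of -0.51 with a counting SE of 0.10) and stood at 2.71, 2.65 and 3.17 in myeloid cells.

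Slc35a4, of the nucleotide sugar transporter family (36679215 to 36683862), was the 1 neighbour lower in both. Progenitors gave 65.9 (62.2 to 69.6), 59.1 (55.5 to 62.7) and 52.1 (49.3 to 54.9), a log2 ratio of -0.33 (counting SE 0.05). In myeloid cells it was 24.0, 24.5 and 19.6, a ratio of -0.28 (0.10), with Het level with WT. The sign in progenitors differs between FPKM and the fragments implied by the interval width, and the cause was not tested. The implied numbers take that width as counting error alone and are not observed counts. The interval widths imply 1278 fragments in WT and 1400 in KO progenitors, or 123 and 149 in every 1000000 of the library, a log2 ratio of 0.27 in the opposite direction. In myeloid cells the implied fragments gave -0.28, as FPKM did. Of the 24 differences past the interval rule in KO cells over both fractions, the other 23 had the same direction in implied fragments, though not always the same size. Slc35a4 overlaps Apbb3, an adaptor that binds the amyloid precursor protein, on the other strand, and Apbb3 was at 9.37, 9.13 and 6.86 in progenitors (-0.40, counting SE 0.13) and at 5.06, 5.10 and 4.83 in myeloid cells.

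**Figure D3:**
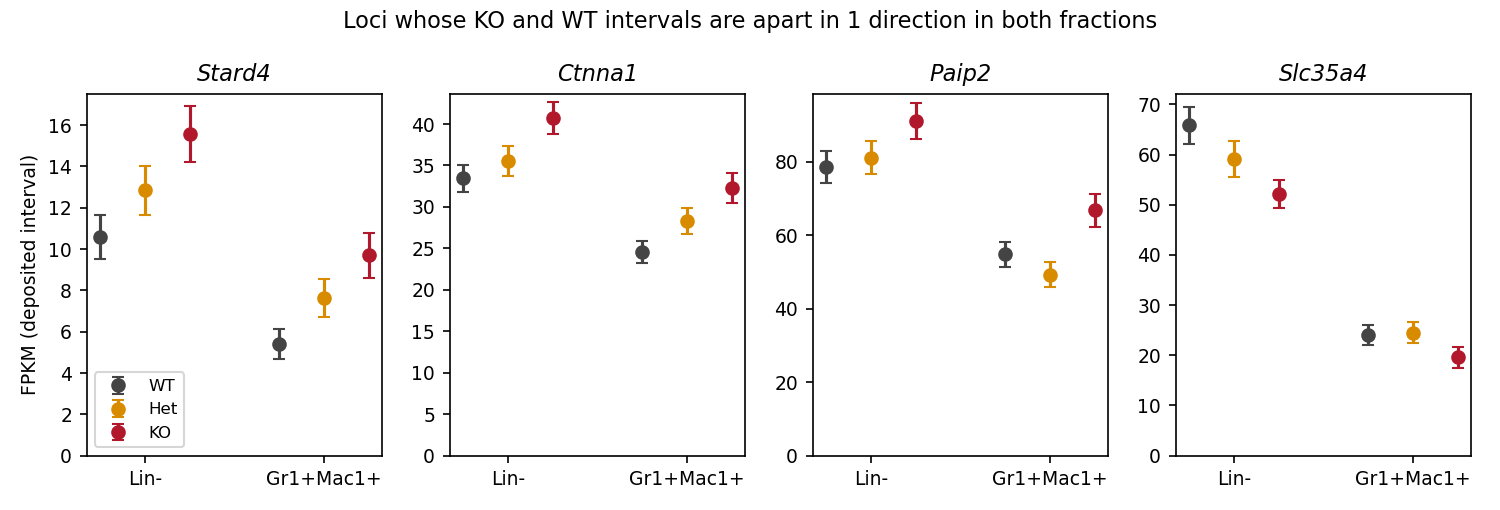
FPKM of Stard4, Ctnna1, Paip2 and Slc35a4 in the 6 libraries (axes start at 0), with the deposited 95% intervals as bars. In each panel the KO interval lies apart from that of WT, above it in the first 3 genes and below it in Slc35a4, and Stard4 and Ctnna1 have Het between WT and KO in both fractions.

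The other loci past the interval rule in KO cells differed in 1 fraction only by that rule; whether the fractions differ was not tested. Several were named after their values were seen. Among the higher ones in progenitors were Cdc23, Apc, Kdm3b and Fam13b. Cdc23, a subunit of the anaphase-promoting complex, stood at 31.2, 34.6 and 37.5. Apc, the inhibitor of beta-catenin signalling, was at 4.03, 4.16 and 4.95, and Kdm3b, a histone H3 demethylase, at 20.5, 20.5 and 22.8. Fam13b was at 15.1, 17.0 and 18.4. Cdc23 overlaps Kif20a, Apc overlaps Gm10548 and Fam13b overlaps Pkd2l2, so fragments of these loci may be shared.

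The lower loci of KO progenitors included Hspa9, Etf1 and Hbegf. Hspa9, the mitochondrial Hsp70 chaperone and the most abundant protein-coding neighbour in progenitors, was at 245.7, 219.95 and 215.1, a log2 ratio of -0.19 (counting SE 0.02). Etf1, the translation termination factor, was at 80.1, 78.1 and 74.0. Hbegf, a ligand of the epidermal growth factor receptor, had low values of 1.66, 1.41 and 0.594, the last from 16 implied fragments.

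In KO myeloid cells, the remaining loci were few. Kif20a, a mitotic kinesin, was at 22.0, 22.8 and 19.1, and 4933408B17Rik, named here after its values were seen, at 1.77, 0.986 and 0.367. The KO value of the latter rests on 9 implied fragments. Below the interval rule, Pfdn1, a subunit of the prefoldin chaperone, stood at 16.6 in WT and 21.1 in KO (0.33, counting SE 0.13) and Spata24 was at 10.2 and 7.21 (-0.45, 0.32), both with overlapping intervals.

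**Figure D4:**
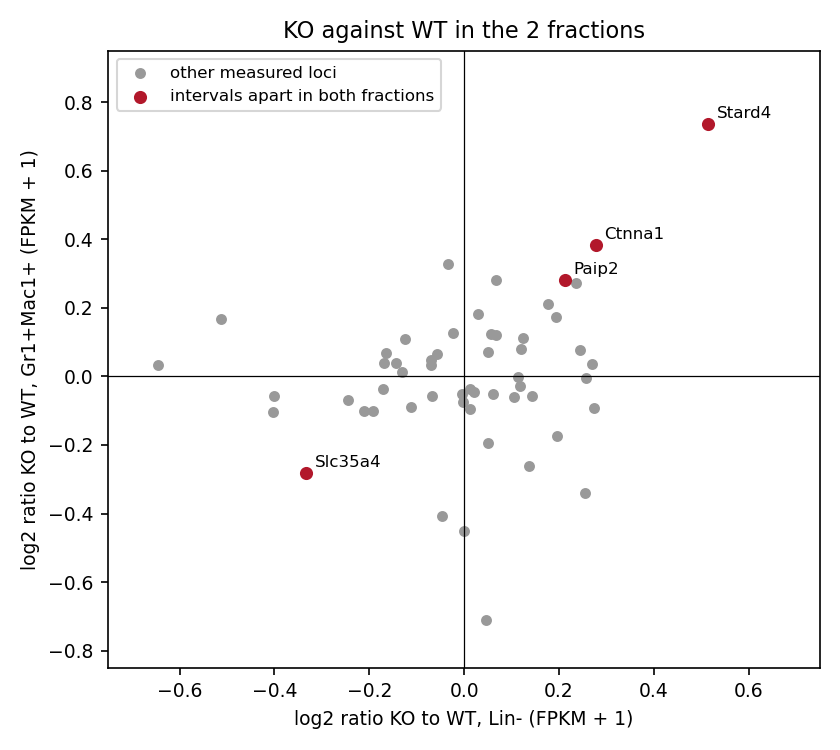
Log2 ratio of KO to WT (FPKM + 1) in Lin- cells (horizontal) and Gr1+Mac1+ cells (vertical) of the 55 neighbours measured in both fractions, without the small RNA loci. Red points are the 4 loci with intervals apart in 1 direction in both fractions, and the Stard4 point lies farthest to the upper right.

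Across the 55 loci of this plot, the KO to WT ratios of the fractions correlated with a Pearson r of 0.24 and a Spearman coefficient of 0.24, and with the small RNA loci the 57 gave -0.31 and 0.20. The rest of chromosome 18 gave 0.23 and 0.22 over 178 loci and all 10254 loci gave 0.12 and 0.04, both with their small RNA loci kept. These are correlations across genes, which are not independent replicates, and the points of a fraction share 2 libraries. No neighbour passed the interval rule in opposite directions by FPKM, where 1.40% of all loci did. By implied fragments Slc35a4 would be 1 of 57 in opposite directions, a count not made over all loci.

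Differences were small in Het cells too. No neighbour passed the size rule, which was 0 of 63 in progenitors beside 1.36% of 10956 loci (1.3% higher and 0.0639% lower) and 0 of 59 in myeloid cells beside 0.133% of 11274 (0.0355% and 0.0976%). The median log2 ratio of the members was -0.0038 in progenitors and -0.01 in myeloid cells, where all loci gave -0.000055 and -0.00073. In Het progenitors 2 neighbours were higher and 4 lower by the interval rule, 9.52%, beside 14.6% of all loci (8.41% higher and 6.2% lower). At a mean FPKM of 5 or more it was 8.16% of 49, beside 15.6%. The 2 higher were Cdc23, given above, and Arhgap26, a GTPase-activating protein, at 0.955, 1.4998 and 1.13. Arhgap26 was far more abundant in myeloid cells (8.59, 9.89 and 9.36), and the summed granulocyte and monocyte markers of this library were raised as given above; their part in its value was not tested. Among the 4 lower were Hspa9, Wdr55 and Spry4, an inhibitor of receptor tyrosine kinase signalling at 1.56, 0.767 and 1.40.

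In Het myeloid cells 7 neighbours were higher and 5 lower by the interval rule, 20.3% of 59, beside 16.8% of all loci (8.27% higher and 8.49% lower) and 21.2% of the rest of chromosome 18. With a mean FPKM of at least 5 it was 11 of 44, beside 20% of all loci. The higher ones were Stard4, Ctnna1, Arap3, Arhgap26, Apc, Kdm3b and Ankhd1, an ankyrin repeat protein that binds RNA. Kdm3b stood at 24.8, 28.8 and 23.8 and Ankhd1 at 13.4, 15.7 and 12.996, so Het was the highest of the 3 in each. The lower ones were Etf1, Fam13b, Zmat2, Matr3, an RNA-binding protein of the nuclear matrix, and Ube2d2, a ubiquitin-conjugating enzyme. Etf1 was at 34.4, 28.5 and 32.2, Fam13b at 17.7, 14.4 and 16.5, Matr3 at 28.4, 25.3 and 31.1 and Ube2d2 at 44.9, 39.7 and 47.3, with Het the lowest in each.

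Genes with the largest Het ratios besides these did not pass the interval rule. Sil1, a cofactor of the chaperone BiP, was at 19.5, 22.3 and 18.5 in progenitors and 8.37, 11.0 and 8.60 in myeloid cells, and Cdc25c, a phosphatase of mitotic entry, at 11.9, 13.6 and 12.998 in progenitors. Sra1, a steroid receptor coactivator, was at 34.8, 27.8 and 33.9 and Srp19, a protein of the signal recognition particle, at 33.4, 27.2 and 32.2 in myeloid cells, with Het lowest in both.

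KO and Het libraries were also compared with each other. No neighbour passed the size rule, which was 0 of 63 in progenitors beside 1.25% of all loci (0.0913% higher and 1.16% lower) and 0 of 59 in myeloid cells beside 0.133% (0.0621% and 0.071%). By the interval rule 7 were higher and 5 lower in KO progenitors, 19.0%, beside 11% of all loci (3.57% higher and 7.4% lower), and 7 higher and 6 lower in KO myeloid cells, 22.0%, beside 18.6% (9.46% and 9.13%). At a mean FPKM of 5 or more they were 7 of 49, beside 11%, and 11 of 44, beside 22.8%. Stard4, Ctnna1 and Paip2 were higher and Slc35a4 lower in KO than in Het in both fractions. The comparisons with WT and with Het share the KO library of each fraction, so these calls are not separate evidence.

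By role, the members split without a common direction in KO cells. Over all loci, 13.5% in progenitors and 10.8% in myeloid cells passed the interval rule in either direction. The lists hold 4 to 14 measured loci, and none was tested against these shares. Of 14 measured genes of RNA binding, splicing and translation in progenitors, Paip2 was higher and 3 were lower (Etf1, Wdr55 and Zmat2) by the interval rule, with a median log2 ratio of -0.03. Of 11 genes of chaperones, mitochondria, ER and transport, 1 was higher and 3 lower (median -0.07). Of 7 of the cell cycle and ubiquitin, 2 were higher and none lower (0.05), and of 8 of chromatin and transcription, 1 and none (0.01). Of 5 signalling and immune genes none was higher and 2, Hbegf and Apbb3, were lower (-0.09). In myeloid cells the counts of higher and lower loci were 1 and 0 of 13 for RNA binding, 1 and 1 of 10 for chaperones, 0 and 1 of 7 for the cell cycle, 0 and 0 of 8 for chromatin and 0 and 0 of 4 for signalling. The 4 measured genes of adhesion, cytoskeleton and small GTPases, Ctnna1, Arap3, Fchsd1 and Arhgap26, had positive ratios in KO cells of both fractions, with medians of 0.18 in progenitors and 0.28 in myeloid cells. Among them 1 passed the interval rule in progenitors and 2 in myeloid cells. The list is small and its members were chosen with earlier results of these data known.

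Between the fractions the neighbours differed far more than between genotypes. With each pool as a block in limma, 39 of 62 were higher in progenitors and 10 in myeloid cells at an adjusted p under 0.05, where 51.6% and 30.4% of all 11489 loci were. The median log2 ratio of the members was 0.63 and that of all loci 0.33 toward Lin-. After rescaling by that median the split of the members was 33 to 17, beside 38.8% and 39.2% of all loci. On the rest of chromosome 18, 114 of 200 were higher in progenitors and 47 in myeloid cells. Since the 3 pools are of unlike genotype, the spread behind these p-values mixes sampling with any way in which the genotypes shift the fraction ratio.

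Progenitors had the higher level of most genes of folding, translation and RNA handling. Hspa9 had a mean FPKM of 226.9 ± 16.5 in progenitors and 41.4 ± 1.76 in myeloid cells (SD, n = 3 pools), a limma log2 ratio of 2.43 (SE 0.06, adjusted p = 0.000109). Prelid2, of a family of mitochondrial lipid transfer proteins, had the largest ratio apart from Mir1949, 3.78 (SE 0.24), with 33.9, 33.8 and 35.0 in progenitors against 1.75, 2.68 and 0.677 in myeloid cells. Snhg4, a small nucleolar RNA host gene, followed at 2.46, Wdr55 at 2.35, 1700086O06Rik at 2.15 and Spata24 at 2.13. Of 14 genes of RNA binding, splicing and translation 13 were higher in progenitors and none in myeloid cells, with a median 0.45 above that of all loci. After rescaling Ankhd1, Ik, Sra1 and Zmat2, of this list, no longer passed, and neither did Ctnna1, while Eif4ebp3, also of this list, then passed toward myeloid cells (-0.36, adjusted p = 0.0069). Of 11 genes of chaperones, mitochondria, ER and transport 9 were higher in progenitors and 1, the ER-shaping protein Reep5, in myeloid cells (29.5, 32.9 and 32.0 against 46.4, 45.8 and 46.4).

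Myeloid cells had the higher level of 10 neighbours. The largest ratio was that of the locus 2010001M09Rik, named Mzb1 in GENCODE and here after its values were seen, which encodes an ER protein of antibody-secreting B cells (limma log2 ratio -2.68, SE 0.16, adjusted p = 0.000171). It stood at 2.72, 1.96 and 1.38 in progenitors and at 17.0, 19.8 and 17.4 in myeloid cells. The summed FPKM of 6 B lineage markers was 10.4 to 23.6 in Lin- and 239 to 279 in Gr1+Mac1+ libraries; their part in the Mzb1 level was not tested. Arhgap26 had a limma log2 ratio of -2.23 (SE 0.09, adjusted p = 0.000109). Tmem173, the DNA-sensing adaptor STING, followed at -1.84, with 5.25, 5.21 and 5.73 in progenitors against 23.1, 20.6 and 22.1 in myeloid cells. Nrg2, a ligand of ErbB receptors, was at -1.26, Arap3 at -1.04 and Fchsd1 at -0.82. Of the 4 genes of adhesion, cytoskeleton and small GTPases Arhgap26, Arap3 and Fchsd1 were higher in myeloid cells, and Ctnna1 in progenitors by 0.36, a call that rescaling ended. Of the 4 signalling and immune genes tested 2, Tmem173 and Nrg2, were higher in myeloid cells, 1, Apbb3, in progenitors, and Gnpda1 was not called.

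**Figure D5:**
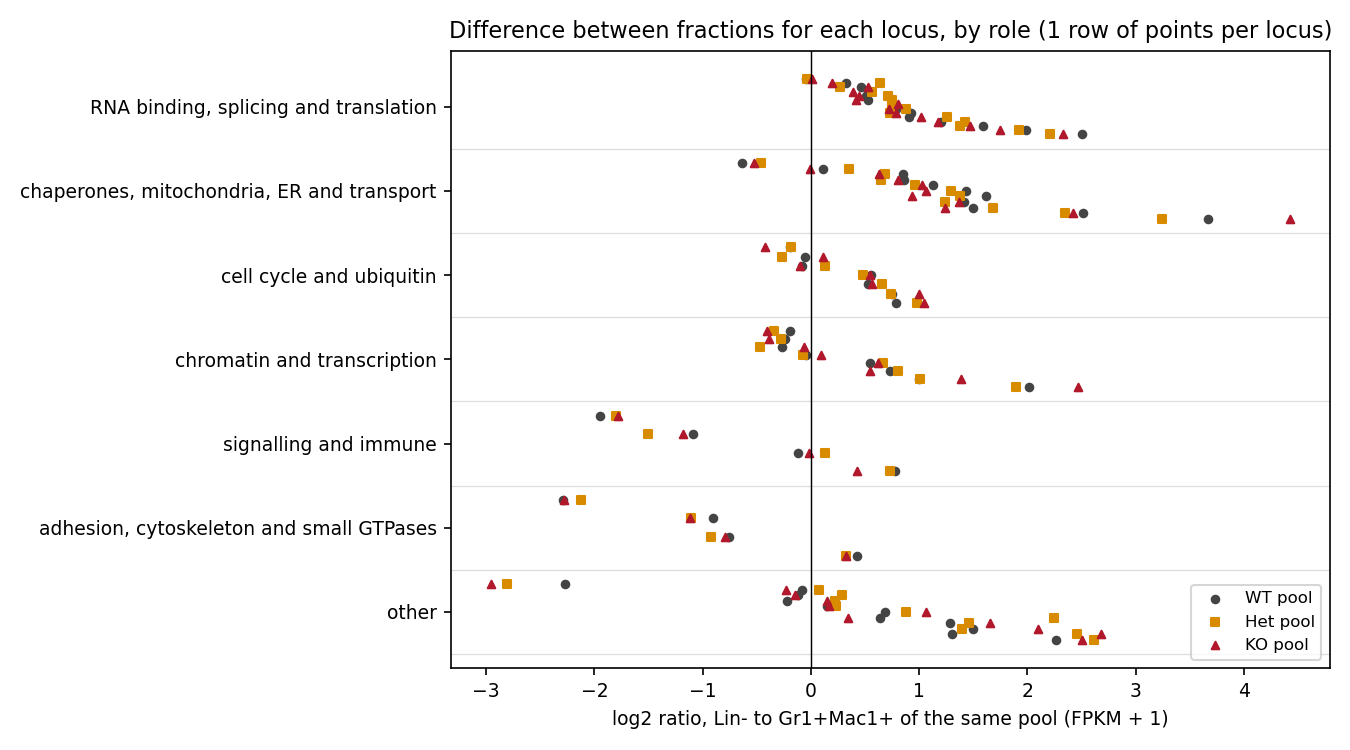
Log2 ratio of Lin- to Gr1+Mac1+ (FPKM + 1) within the WT, Het and KO pool, with 1 row of 3 points per locus, grouped by role and without the small RNA loci. Prelid2 lies farthest right, between 3.24 and 4.43, and the rows of RNA binding genes lie right of 0 except Eif4ebp3, whose 3 values straddle it.

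For 13 neighbours no difference between fractions was called by limma. They include abundant genes. Nr3c1, the glucocorticoid receptor, had values of 18.1, 18.6 and 19.7 in progenitors and 18.7, 19.6 and 18.4 in myeloid cells (log2 ratio -0.0095, SE 0.07, adjusted p = 0.905). Ube2d2 was at -0.02, Gnpda1, an enzyme of amino sugar breakdown, at -0.0035 and Rnf14 at -0.08. Relative to the median of all loci each of these 4 was lower in progenitors, and all 4 passed after rescaling. Brd8, a bromodomain protein of the NuA4 acetyltransferase complex, and Ndfip1, an adaptor of Nedd4 ubiquitin ligases, were called in opposite directions, with 32.6, 32.0 and 32.5 against 22.0, 19.8 and 20.8 for Brd8 and 48.3, 50.7 and 43.0 against 55.2, 57.6 and 58.0 for Ndfip1. With 1 pool fewer some calls were lost. For Ndfip1, at -0.26 with all pools, the ratio was -0.30 without the WT and -0.19 without the KO pool (limma adjusted p = 0.0743 and 0.121). For Taf7, at -0.31, it was -0.30 without the Het and -0.27 without the KO pool (0.0662 and 0.102), and for Sra1, at 0.39, it was 0.42 without the WT pool (0.0748).

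At the ends of the window the values were as follows. The first 2 measured loci inside the lower end were Wdr36, a nucleolar protein whose locus crosses the boundary (44.9, 43.1 and 41.1 in Lin-, 10.6, 10.6 and 11.5 in myeloid cells), and Stard4. The first 2 outside it were Gypc, a red cell membrane protein (55.5, 58.5 and 64.2, and 26.0, 18.5 and 17.7), and Bin1, a membrane-bending protein (5.26, 4.90 and 5.05, and 13.7, 14.1 and 10.1). By the interval rule against WT, Gypc was higher in KO progenitors (log2 ratio 0.21) and lower in KO (-0.53) and Het (-0.47) myeloid cells. Bin1 was lower in KO myeloid cells (-0.40). At the upper end Rbm27, an RNA-binding protein (14.9, 14.8 and 14.8, and 8.38, 8.43 and 8.05), lay inside. Dcp2, the mRNA decapping enzyme (11.0, 11.0 and 11.6, and 8.59, 8.41 and 8.58), and Ythdc2, a reader of methylated RNA (7.35, 6.60 and 6.26, and 3.67, 3.65 and 3.18), lay outside. For both, the KO and WT intervals overlapped in each fraction. At the level limit, Camk4, a calcium-dependent kinase, fell short with a mean FPKM of 0.863 in progenitors where Arhgap26 passed with 1.195.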

How the data were processed

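For every locus of each library the authors deposited an FPKM value, its interval and a status flag, per the file headers. The submitters' processing notes list TopHat2 2.0.7, Cufflinks 2.0.2 and the build mm10 without saying what each was used for, and no annotation is named there. Locus starts were read as 0-based and are printed 1-based. A locus with another status than OK was not compared. The upper bound was read as 2 SD above the value. That gives the counting SEs and the implied fragment numbers, which cover counting error only, as no molecular identifiers are recorded. The fractions were tested in R 4.3.3 by limma 3.58.1, with an intensity trend, on log2(FPKM + 1) of the 11489 loci that averaged at least 1 over the 6 libraries, blocking on pool, and p-values were adjusted by Benjamini and Hochberg. The labels' protocols take both cell fractions from each pool, which pairs them. Deviations from the fraction means correlated within a pool by 0.10 (WT), -0.06 (Het) and -0.01 (KO). Calls were tested on simulated data. Tables and plots used Python 3.11.15 with pandas 2.3.3, matplotlib 3.10.9 and numpy 2.4.6.

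Members, role lists and rules were chosen with earlier results of these data known. The genes named are the 6 measured loci nearest Diap1 on each side, any past the interval rule in both fractions, the 3 highest and lowest ratios to WT at a mean FPKM of at least 5, the 3 most abundant of a role list, the 5 largest ratios between fractions each way, and the loci at the window's ends. Except among the nearest loci, symbols with Rik, Gm, Mir, Snor or Vaultrc were passed over in these rankings. The rest were added after their values were seen. Alternatives changed the pseudocount (0.1 or 5), the level filter, the scaling, the fold, the interval criterion or the window (2 Mb), or dropped the block or a pool. Some genes are not reported here.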

Additional observations from a re-analysis of the deposited data

How the results depend on the processing

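The alternatives gave 198 values near the reported one and 35 that moved. A count was near where it was equal or within 1.5-fold. A genotype median was near where it shifted by less than the median counting SE of the members. A median between fractions was near where it shifted by less than the SD of the pool medians. Medians close to 0 could thus change sign, as in KO against WT progenitors (0.013, and -0.034 within 2 Mb). By the size rule, where no neighbour passed, a limit of 1.5-fold gave 1 higher in KO than WT in each fraction. Without the interval criterion there was 1 lower in KO progenitors and 1 higher in KO myeloid cells against WT. Against Het it was 1 lower in progenitors and 2 higher in myeloid cells. These counts are of 63 loci in progenitors and 59 in myeloid cells. The share of all loci under these limits was not computed. Within 2 Mb of Diap1, 27 loci were measured in progenitors, 24 in myeloid cells and 23 in both. Of these 23, 0 were higher and 1, Slc35a4, was lower in KO in both fractions, beside 1.58% of all loci. The interval rule there gave 1 higher and 5 lower in KO against WT progenitors and 1 and 2 in myeloid cells. All loci gave 13.5% and 10.8% in either direction. For Het against WT it gave 1 and 2 in progenitors and 3 and 1 in myeloid cells, beside 14.6% and 16.8% of all loci. For KO against Het it gave 1 and 4 in progenitors and 1 and 2 in myeloid cells, beside 11% and 18.6%. Asking for 1.2-fold as well in the full window left 4 higher and 4 lower in KO progenitors against WT, and 4 and 3 in myeloid cells. It left 1 and 2 in Het progenitors and 1 and 1 in Het myeloid cells. For KO against Het it left 1 and 3 in progenitors and 4 and 4 in myeloid cells. Again these are of 63 and 59 loci, and the share of all loci was not computed for single fractions. With a mean FPKM of at least 5 there were 1 higher and 3 lower of 49 in Het against WT progenitors. In KO against Het progenitors there were 5 higher and 2 lower of 49. All loci gave 15.6% and 11% in either direction. These alternatives to the interval rule were chosen after seeing the data. Smaller windows hold fewer loci; otherwise the cause was not tested.

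Between fractions, the median log2 ratio of the members, 0.63, was 0.45 with a pseudocount of 5, 0.014 without the filter on low values, 0.29 after rescaling and 0.20 within 2 Mb. Rescaling raised the members called higher in myeloid cells from 10 to 17 of 62, beside 30.4% and 39.2% of all loci. The 2 Mb window left 13 higher in progenitors and 7 in myeloid cells, of 26, beside 51.6% and 30.4% of all loci. The median of these 26, 0.20, lay under the 0.33 of all loci. Without the replicate block, the counts were 38 and 11 in place of 39 and 10 with it, so the pairing moved few calls. All loci gave 6052 and 3530 of 11489 without the block. Leaving out 1 pool gave 36 to 41 higher in progenitors, 8 in each case in myeloid cells and medians of 0.56 to 0.69. All loci then gave 5341 to 5690 higher in progenitors and 3144 to 3355 in myeloid cells, of 11464 to 11487. Vaultrc5, with at most 9 fragments, was at -0.61 and not called with all pools. Without the KO pool it was at 0.44 and called toward progenitors (limma adjusted p = 0.0432). Without the Het pool it was at -1.15. Depth limits the low loci, with 1 library for each group.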
